A study of Mus musculus with 2 samples.

Results

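The 10 genes described here, Slc7a5, Slc3a2, Slc43a2, Slc38a1, Slc38a2, Slc38a6, Slc1a5, Slc7a7, Slc7a8 and Slc16a10, encode proteins that carry amino acids across the plasma membrane. They were chosen by name, and each matched 1 row of a matrix of 32285 mouse genes. The matrix holds single-nucleus RNA of tumour-associated macrophages (TAMs) sorted from mammary tumours driven by the polyoma middle T oncogene (PyMT). There were 2 samples, 1 per genotype. MYC-PyMT recipients carried S100a8-cre with a cre-dependent MYC allele at Rosa26, and control-PyMT recipients served as their reference. The S100a8 promoter is active mainly in neutrophils and related myeloid cells. No MYC allele is named for the donors of the marrow. All mice were backcrossed to B6. At 7 weeks of age they were irradiated and received bone marrow cells of donors with Fcgr1-cre and a cre-dependent H2B-mCherry allele, which labels nuclei of cells that have used the Fcgr1 promoter. A low protein diet began 2 weeks later and lasted 6 weeks, so no group on another diet is set beside it here. Living cells positive for CD45, F4/80 and Vcam and lacking Ly6C, Ly6G, B220 and Siglec-F were sorted, and their nuclei were sorted again as positive for mCherry and the nucleic acid dye SYTO9 and negative for CD11b. How many animals entered a sample is not given in the sources used here.

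Amino-acid carriers fall into a few working types. Sodium-coupled carriers such as the products of Slc38a1 and Slc38a2 move glutamine, alanine and other small neutral amino acids into the cell against a gradient, while exchangers such as those of Slc1a5, Slc7a5, Slc7a7 and Slc7a8 swap one amino acid for another. The Slc7 light chains reach the cell surface only when bound to the heavy chain 4F2hc, the product of Slc3a2. Facilitated carriers such as those of Slc43a2 and Slc16a10 let neutral or aromatic amino acids pass down their gradients. In amino-acid shortage the kinase GCN2 raises translation of the transcription factor ATF4, and Slc7a5, Slc3a2 and Slc38a2 are well-known targets of ATF4. Macrophages that engulf dying cells also take up protein and must dispose of the amino acids released in their lysosomes.

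Barcodes came from 2 wells, and no label ties a well to a genotype. The matrix was therefore treated as 1 pooled sample with no genotype comparison, no p-value and no standard error, and each well is given as an unmapped well. The matrix held 7381447 counts of unique molecular identifiers (UMIs, each a distinct molecule). After 26 barcodes were removed, 1812 nuclei were kept, 1377 from well 1 and 435 from well 2. The wells shared 9 barcode sequences. Levels below are counts summed over the nuclei of a class and scaled by the UMI total of the class (CPM). Intervals are exact 95% intervals for counting error only. A difference is called where it reaches 2-fold in either direction with at least 20 UMIs over both sides, which is a size and not a test.

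Clustering without any amino-acid carrier among the variable genes gave 1255 macrophage-like nuclei and 232 epithelial-like nuclei. The macrophage-like nuclei (871 from well 1 and 384 from well 2) had a median of 2775 UMIs, and the epithelial-like nuclei (205 and 27) a median of 6127, with up to 103328 in 1 nucleus. All 11 macrophage markers were detected in macrophage-like nuclei, with Ptprc, the gene of CD45, at 1123 CPM, the engulfment receptor gene Mertk at 636 CPM and Csf1r at 576 CPM. The 12 epithelial markers, led by Ehf (635 CPM) and Cdh1 (567 CPM), were all detected in epithelial-like nuclei, although the sort was for TAMs. Another 314 nuclei formed cluster 4, with a median of 721 UMIs, and stayed unnamed and outside the ratios below. Each class also held a low level of the markers of the other. Macrophage markers in epithelial-like nuclei summed to 409 CPM, which is 7.39% of their level in macrophage-like nuclei, with 10 of the 11 genes between 1.16% and 10.4% and a median of 3.63% over all 11. Epithelial markers in macrophage-like nuclei summed to 230 CPM, or 6.86% of their level in epithelial-like nuclei, with single genes between 1.32% and 82.0% and a median of 5.61%, the highest being the oestrogen receptor gene Esr1. Doublet calling marked 0 nuclei in well 1 and 5 in well 2, so mixed nuclei may remain. Free RNA and mixed nuclei could both give such levels, and their part in the carriers' levels was not tested.

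Macrophage-like and epithelial-like nuclei differed in which carriers they held at high levels. The 10 genes summed to 1891 CPM (95% interval 1849 to 1935) in macrophage-like nuclei, against 1019 CPM (983 to 1056) in epithelial-like nuclei. The sums lay further apart in well 1, at 1739 CPM in macrophage-like and 958 CPM in epithelial-like nuclei, than in well 2, at 2218 and 1884 CPM in the same classes. The exchanger genes Slc7a7 and Slc7a8 and the facilitated carrier genes Slc43a2 and Slc16a10 were 4.53 to 27.5 times as high in macrophage-like nuclei, and Slc38a6 was 2.43 times as high. Slc7a5, the light chain of the large neutral amino-acid exchanger LAT1, was called lower, at 0.41 times the epithelial-like level. In epithelial-like cluster 7 taken alone, described below, its interval overlapped the macrophage-like one. The remaining 4, Slc3a2, Slc38a1, Slc38a2 and Slc1a5, were not called. Of 12825 genes compared, 16.5% were called higher and 29.5% lower in macrophage-like nuclei, against 5 and 1 of the 10 carriers. The median log2 ratio was 1.01 over the 10 carriers and -0.38 over all genes compared. These 6 calls held in all 12 other settings that gave a value, among them each well alone.

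**Figure D1:**
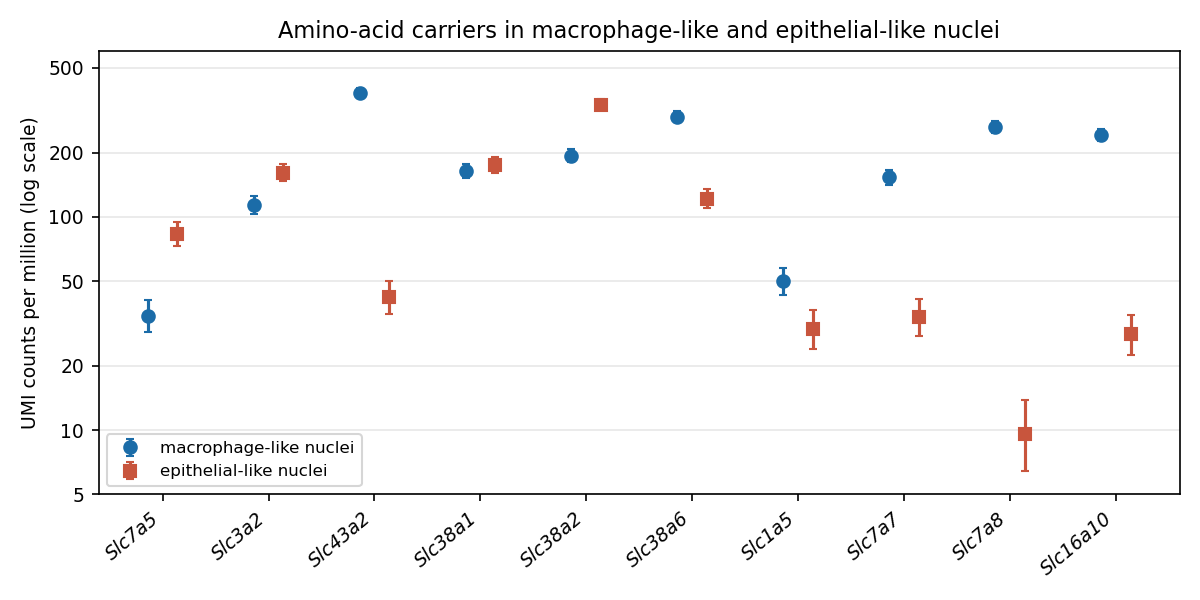
Summed UMI counts in CPM (log scale) of the 10 carrier genes in macrophage-like (circles) and epithelial-like nuclei (squares), with exact 95% Poisson intervals for counting error. Slc43a2, Slc7a7, Slc7a8 and Slc16a10 sit far higher in macrophage-like nuclei, and Slc7a5 is lower there, at 34.3 CPM against 83.1 CPM.

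Among the heavy chain and its light chains, the partners differed in direction. Slc3a2 (chr19:8706882-8723369 in GRCm38, minus strand) had 114 CPM (103 to 125) in macrophage-like nuclei, against 161 CPM (147 to 176) in epithelial-like nuclei, a ratio of 0.71 (0.62 to 0.81). By well, it had 101 and 141 CPM in macrophage-like nuclei, against 163 and 136 CPM in epithelial-like nuclei. The heavy chain was thus present in both classes at levels within 2-fold.

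Slc7a5 (chr8:121881150-121907694, minus strand) encodes LAT1, which imports leucine and other large neutral amino acids in exchange for glutamine. It had 34.3 CPM (28.7 to 40.6) in macrophage-like nuclei, with 34.2 in well 1 and 34.4 in well 2, against 83.1 CPM (73.2 to 94.1) in epithelial-like nuclei, with 80.5 in well 1 and 121 in well 2. Both wells were lower in macrophage-like nuclei, and the intervals of the pooled levels do not overlap. After every nucleus was thinned to 1000 UMIs, 2.65% of macrophage-like nuclei (1.81 to 3.75) and 5.70% of epithelial-like nuclei (3.07 to 9.55) held a Slc7a5 UMI, and before thinning the shares were 8.61% and 37.1%. Thinning left out 87 macrophage-like and 4 epithelial-like nuclei.

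Slc7a8 (chr14:54722209-54781946, minus strand) encodes LAT2, a light chain that also exchanges neutral amino acids, small ones included. It had 264 CPM (248 to 281) in macrophage-like nuclei, with 269 in well 1 and 253 in well 2, against 9.60 CPM (6.43 to 13.8) in epithelial-like nuclei, with 6.03 in well 1 and 60.3 in well 2. The ratio was 27.5 (19.0 to 41.3) in both wells together, 44.6 (27.7 to 77.0) in well 1 and 4.20 (2.37 to 8.22) in well 2, where the 27 epithelial-like nuclei held 12 UMIs and 1 nucleus held 4 of them. In thinned nuclei the shares with a UMI were 19.7% (17.4 to 22.1) in macrophage-like and 0.877% (0.106 to 3.13) in epithelial-like nuclei. The epithelial-like level was 3.64% of the macrophage-like one, beside a median of 3.63% for macrophage markers in the same nuclei. In well 2 alone, macrophage markers summed to 402 CPM in epithelial-like nuclei, against 5602 CPM in macrophage-like nuclei.

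Slc7a7 (chr14:54369442-54417780, minus strand) encodes y+LAT1, which exports lysine and arginine in exchange for neutral amino acids and sodium, and whose loss in humans causes lysinuric protein intolerance. It had 153 CPM (141 to 166) in macrophage-like nuclei, with 154 in well 1 and 152 in well 2, against 33.8 CPM (27.5 to 41.0) in epithelial-like nuclei, with 35.1 in well 1 and 15.1 in well 2. Both wells stood alike in macrophage-like nuclei, and all 4 single-well levels kept the same direction. Slc7a7 overlaps Oxa1l on the opposite strand, which had 203 UMIs in all, and how strand was used in counting is not given in the sources used here, so reads of the pair may not be told apart.

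Promoter windows from 250 bases before to 50 bases after a start were given by RefSeq (GRCm38.p6) for 7 of the 10 genes, 12 windows in all, and not for Slc7a5, Slc38a1 and Slc1a5. Both strands were searched for TGATGNAA, the core of the composite element that ATF4 binds with C/EBP factors, and for CACGTG, the E-box bound by MYC and by MiT/TFE factors. The element TGATGNAA was found in 3.97% of 32851 windows of all genes, and CACGTG in 7.15%. Counted by gene, 1219 of 27025 genes held TGATGNAA in a window and 2187 held CACGTG. Of the 7 carriers with a window, 1 held TGATGNAA, Slc7a7, in 2 overlapping windows, and 0 of the 12 windows held CACGTG. The match in the second Slc7a7 window is the same site as the match at -1 in the first. The first Slc7a7 window (chr14:54417895-54418194, minus strand) is shown because it is the one with 2 matches, printed in capitals, which begin at positions -141 and -1 from the start.
Slc7a7: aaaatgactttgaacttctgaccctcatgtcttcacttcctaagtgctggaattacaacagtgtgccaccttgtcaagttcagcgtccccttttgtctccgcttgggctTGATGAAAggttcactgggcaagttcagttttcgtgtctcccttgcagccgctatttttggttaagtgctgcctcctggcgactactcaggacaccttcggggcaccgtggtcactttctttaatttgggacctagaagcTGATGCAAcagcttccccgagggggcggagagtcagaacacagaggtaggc
These matches are letters in a window and no measure of binding.

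Both facilitated carrier genes were called higher in macrophage-like nuclei. Slc43a2 (chr11:75531694-75577575, plus strand) encodes LAT4, which passes branched-chain amino acids, methionine and phenylalanine down their gradient. It had 381 CPM (362 to 401) in macrophage-like nuclei, with 326 in well 1 and 499.7 in well 2, against 42.1 CPM (35.1 to 50.05) in epithelial-like nuclei, with 41.1 in well 1 and 55.3 in well 2. The ratio was 9.07 (7.56 to 11.0), and 7.93 and 9.04 in wells 1 and 2. In thinned nuclei the shares with a UMI were 25.1% (22.6 to 27.7) in macrophage-like and 4.82% (2.43 to 8.47) in epithelial-like nuclei. The antisense gene Gm45606 overlaps it with 20 UMIs in all.

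Slc16a10 (chr10:40033532-40142258, minus strand) encodes TAT1, a carrier of tryptophan, tyrosine and phenylalanine. It had 242 CPM (227 to 258) in macrophage-like nuclei, with 217 in well 1 and 297 in well 2, against 28.2 CPM (22.5 to 34.8) in epithelial-like nuclei, with 28.0 in well 1 and 30.1 in well 2. The ratio of 8.61 (6.89 to 10.9) was 7.73 and 9.87 in wells 1 and 2. In epithelial-like nuclei, Slc43a2 and Slc16a10 stood at 11.0% and 11.6% of their macrophage-like levels and Slc7a7 at 22.1%. Each of these is above the 10 macrophage markers that lay between 1.16% and 10.4% there. Thinned shares with a UMI in epithelial-like nuclei had a median of 2.63% over the macrophage markers, whose median in macrophage-like nuclei was 33.6%. The part of free RNA and mixed nuclei in the epithelial-like levels of these 3 carriers was not tested.

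**Figure D2:**
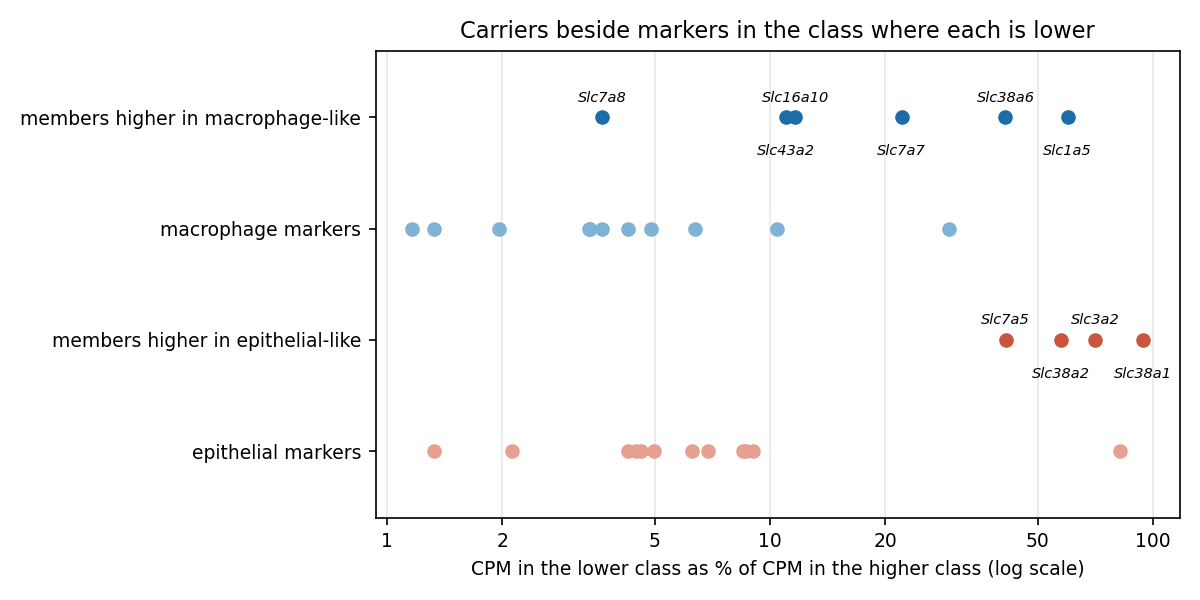
Level of each carrier in the class where it is lower, as a percentage of its level in the other class (log scale), beside the same for 11 macrophage and 12 epithelial markers. Slc7a8 (3.64%) lies among the macrophage markers, Slc43a2 (11.0%), Slc16a10 (11.6%) and Slc7a7 (22.1%) lie above 10 of the 11, and the other 6 carriers are at 41.2% or more.

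The sodium-coupled carriers were expressed in both classes. Slc38a2 (chr15:96687392-96699730, minus strand) encodes SNAT2, which takes up alanine, glutamine and other small neutral amino acids. It had 193 CPM (180 to 207) in macrophage-like nuclei, with 148 in well 1 and 290 in well 2, against 336 CPM (315 to 357) in epithelial-like nuclei, with 290 in well 1 and 980 in well 2. The ratio was 0.58 (0.52 to 0.63) in both wells together, 0.51 in well 1 and 0.30 (0.25 to 0.35) in well 2, so that only well 2 passed 2-fold. In the 27 epithelial-like nuclei of well 2, 24 held the gene, and without the highest of them the level there was 900.2 CPM. Per kilobase of gene, Slc38a2 was the highest of the 10 carriers in both classes, at 15.7 CPM in macrophage-like and 27.2 CPM in epithelial-like nuclei. It is also the shortest of them, at 12.3 kb, and unspliced RNA of long genes may be counted along the whole gene in nuclei.

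Slc38a1 (chr15:96571418-96642913, minus strand) encodes the glutamine carrier SNAT1, and its levels in the 2 classes had overlapping intervals. It had 164 CPM (152 to 177) in macrophage-like nuclei, with 160 and 174 in wells 1 and 2, against 174 CPM (160 to 190) in epithelial-like nuclei, with 174 and 171. The interval of the ratio, 0.84 to 1.06, lies well inside 2-fold. Slc38a6 (chr12:73286779-73354049, plus strand) encodes SNAT6, the least studied of the 3 family members here. It had 295 CPM (278 to 313) in macrophage-like nuclei, with 275 and 339 by well, against 122 CPM (109 to 135) in epithelial-like nuclei, with 119 and 151. At 41.2% of the macrophage-like level, Slc38a6 in epithelial-like nuclei stood above every macrophage marker there.

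Slc1a5 (chr7:16781340-16798274, plus strand) encodes ASCT2, a sodium-dependent exchanger of glutamine, serine and other neutral amino acids, and its wells went opposite ways. It had 49.8 CPM (43.0 to 57.2) in macrophage-like nuclei, with 55.4 in well 1 and 37.6 in well 2, against 29.8 CPM (24.0 to 36.6) in epithelial-like nuclei, with 20.2 in well 1 and 166 in well 2. The ratio was 1.67 (1.29 to 2.17) together, 2.74 (2.01 to 3.79) in well 1 and 0.23 (0.14 to 0.37) in well 2. The 33 UMIs of the epithelial-like nuclei of well 2 came from 16 of 27 nuclei. No single direction holds for Slc1a5 over both wells.

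**Figure D3:**
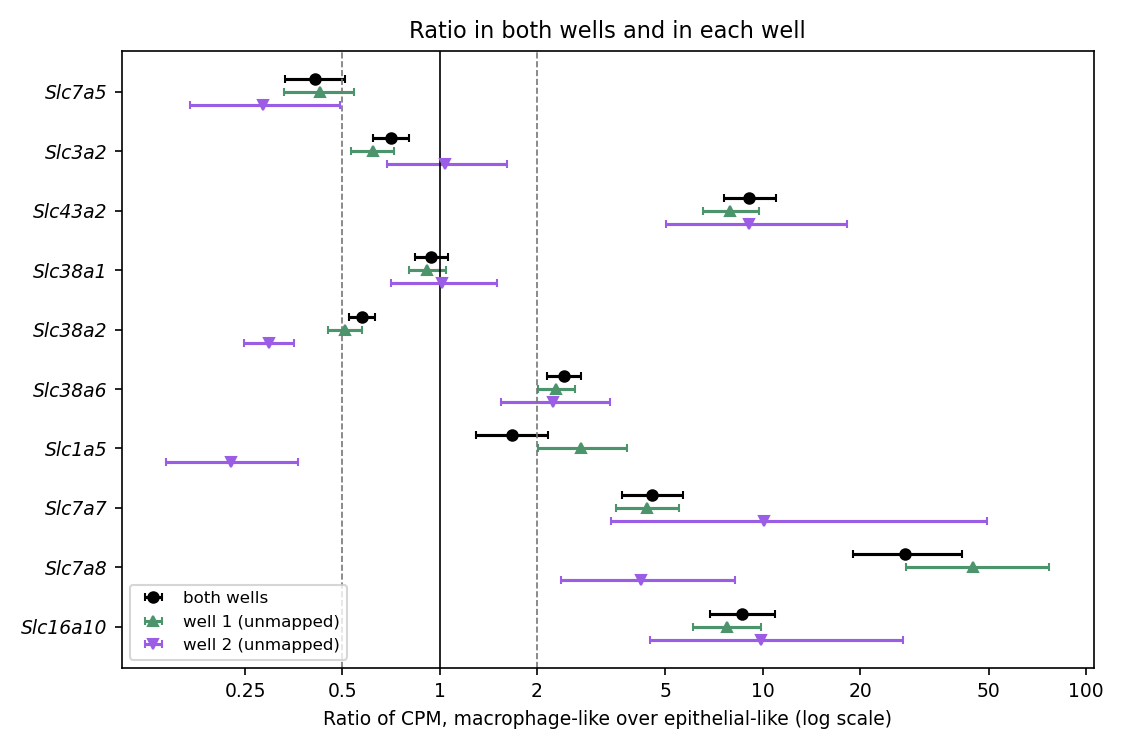
Ratio of CPM in macrophage-like over epithelial-like nuclei (log scale) for each carrier in both wells together and in each unmapped well, with exact 95% intervals; dashed lines mark 2-fold. Slc43a2, Slc7a7, Slc7a8 and Slc16a10 lie right of 2-fold in each well, and Slc1a5 lies at 2.74 in well 1 and 0.23 in well 2.

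Other plasma membrane carriers were read from a list of 25, of which 13 had enough UMIs to compare. In macrophage-like against epithelial-like nuclei 3 were called higher and 6 lower. Over all 12825 genes compared, 16.5% were higher and 29.5% lower, which is the background for this list and for the ATF4 genes below. Slc6a6, the taurine carrier gene, had 775 CPM in macrophage-like nuclei, against 235 CPM in epithelial-like nuclei, a ratio of 3.30 (3.04 to 3.58). The Slc6a6 ratio was 3.36 in well 1 and 1.70 (1.39 to 2.11) in well 2, short of 2-fold. Slc7a11, the light chain of the cystine and glutamate exchanger, had 48.0 CPM against 2.65 CPM, a ratio of 18.1 (9.01 to 42.6) that was 37.5 in well 1 and 1.83 in well 2. Slc7a6, which encodes y+LAT2, had 27.9 CPM against 10.9 CPM, with ratios of 5.31 in well 1 and 0.27 in well 2. The 6 called lower were the glutamate carrier genes Slc1a1 (0.024) and Slc1a2 (0.024), the neutral carrier gene Slc1a4 (0.097), the glycine carrier gene Slc6a9 (0.070), Slc38a3, with 0 UMIs in macrophage-like and 22 in epithelial-like nuclei, and Slc43a3 (0.44), now known as a purine nucleobase carrier. Of 19 ATF4 response genes compared, 1 was called higher, the mitochondrial folate enzyme gene Mthfd2 (3.59), and 8 lower, the lowest ratios being those of the serine synthesis gene Phgdh (0.042), Vldlr (0.043), Trib3 (0.072), the asparagine synthetase gene Asns (0.075) and Stc2 (0.085).

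Macrophage-like nuclei were sub-clustered without the carriers and named by state lists. An inflammatory-like state (343 nuclei, 339 of them from well 1) had 8 of 10 inflammatory and 10 of 10 immediate early genes raised, with the heat shock genes Hsph1 and Dnajb1 among its leading genes. A resident-like state (269, with 239 from well 2) had 7 of 10 resident genes raised. A lipid-associated-like state (130, with 94 from well 2), led by genes such as Gpnmb, had 6 of 10 list genes and 2 inflammatory genes raised. Its list summed to 3981 CPM in its 36 nuclei of well 1 and 6742 CPM in those of well 2. All macrophage-like nuclei had 2712 and 4765 CPM of that list by well, and resident-like nuclei of well 2 had 4106 CPM. A cycling-like state numbered 20 nuclei. Sub-cluster 1 (390 nuclei, 375 from well 1) had 0 genes of any state list raised and is called by its number, with Gna14, Ifi44 and Itga8 as leading genes. Sub-cluster 5, with 103 nuclei and a median depth of 1045 UMIs, stayed unnamed. Most states come from 1 well, so state and library cannot be told apart in pooled ratios, and comparisons inside a well are given beside them. The Y-linked genes Ddx3y and Eif2s3y were among the leading genes of macrophage-like cluster 2 (399 nuclei, 357 from well 2). Whether the wells differ in the sex of the cells was not tested. The 10 carriers summed to 2664 CPM (2519 to 2816) in lipid-associated-like, 2172 CPM (2082 to 2264) in inflammatory-like, 1851 CPM (1761 to 1944) in resident-like and 1476 CPM (1413 to 1542) in sub-cluster 1 nuclei.

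**Figure D4:**
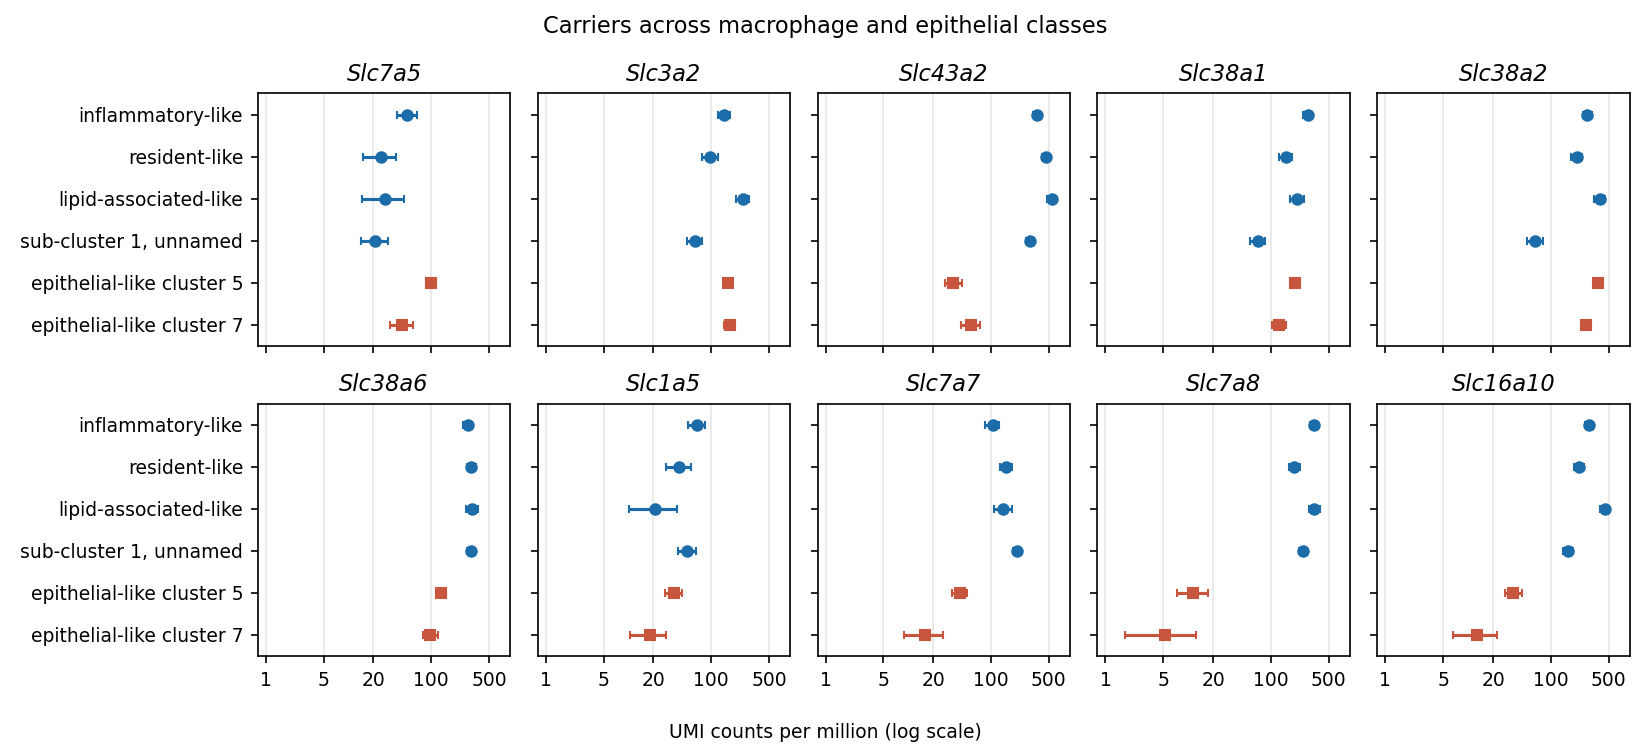
Summed UMI counts in CPM (log scale, exact 95% Poisson intervals) of each carrier in 4 groups of macrophage-like nuclei (circles) and both epithelial-like clusters (squares). All values pool both wells. Slc38a1, Slc38a2 and Slc3a2 are lowest in sub-cluster 1. Slc38a6 lies between 275 and 314 CPM in the macrophage groups, and Slc7a7 is highest in sub-cluster 1 at 206 CPM.

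In inflammatory-like nuclei the glutamine carrier gene Slc38a1 was called higher. It had 278 CPM (247 to 312) there, against 125 CPM in the other macrophage-like nuclei, a ratio of 2.23 (1.90 to 2.61), and was the 1 of 10 carriers called higher, with 0 called lower. Slc38a1 stood about as high in cycling-like nuclei, at 283 CPM (185 to 415, on 26 UMIs). Its ratio there, 1.76 (1.14 to 2.60), was not called. Sub-cluster 1, part of the other side, had 69.5 CPM. The related Slc38a6 stood at 0.91 (0.79 to 1.04) in inflammatory-like nuclei. Of 10170 genes compared, 4.5% were called higher and 16.3% lower. One nucleus held 11.3% of the Slc38a1 UMIs of this state, and the thinned share of nuclei with a UMI was 13.8% (10.2 to 18.0) in inflammatory-like as well as 13.8% (9.79 to 18.6) in resident-like nuclei.

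Within well 1, where 339 inflammatory-like nuclei can be set beside other macrophage-like nuclei of the same library, 3 of 10 carriers passed 2-fold as higher and 0 as lower. Of 9080 genes compared inside that well, 5.62% were higher and 13.5% lower. Slc38a2 had a ratio of 3.94 (3.17 to 4.93) in well 1, against 1.69 (1.45 to 1.96) over both wells, Slc38a1 one of 2.75 (2.26 to 3.37) and Slc7a5 one of 2.19 (1.42 to 3.39). The heavy chain gene Slc3a2 stood at 1.86 (1.46 to 2.38). Slc7a7 went the other way, at 0.57 (0.46 to 0.72) in well 1 and 0.61 (0.49 to 0.76) over both wells, and was not called. Of the 871 macrophage-like nuclei of well 1, 375 were of sub-cluster 1. The other side of these well 1 ratios was thus mostly sub-cluster 1, and the sub-cluster 1 ratios below are no separate result. In well 1, Slc38a1 had 266 CPM in inflammatory-like, 263 in cycling-like (23 UMIs), 253 in resident-like (17 UMIs) and 147 in lipid-associated-like nuclei (18 UMIs). Slc38a2 had 278, 103, 164 and 81.6 CPM in the same nuclei. Over both wells, of 7 other carriers compared in inflammatory-like nuclei, Slc7a6 (2.40) and Slc7a11 (2.79) were called higher and Slc6a8 (0.096) lower. In well 1 alone these ratios were 2.71, 2.86 and 0.34, the last with an interval of 0.036 to 1.58 on 2 UMIs against 10. Of 14 ATF4 response genes 0 were called higher and 1 lower, the serine synthesis gene Psat1 (0.48, 0.12 to 1.40, on 4 UMIs).

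Sub-cluster 1 was the low end of the same genes, which restates in part the well 1 ratios above. Over the other macrophage-like nuclei, Slc38a2 had a ratio of 0.25 (0.19 to 0.31), Slc38a1 one of 0.32 (0.26 to 0.40) and Slc3a2 one of 0.45 (0.35 to 0.57), and these 3 of 10 carriers were called lower, with 0 called higher. Over all genes compared, 10.9% were lower and 5.72% higher. Slc7a7 stood at 1.65 (1.40 to 1.94). In well 1 alone, Slc38a2 had 278 CPM (247 to 313) in inflammatory-like and 60.8 CPM (48.3 to 75.6) in sub-cluster 1 nuclei. Slc38a1 had 266 and 71.3 CPM there, Slc3a2 143 and 63.8 CPM, Slc7a5 51.9 and 20.3 CPM, and Slc7a7 105 and 203 CPM. The immediate early list summed to 10106 CPM in inflammatory-like and 988 CPM in sub-cluster 1 nuclei of well 1, and the inflammatory list to 4747 and 525 CPM. The epithelial markers summed to 279 and 269 CPM in the same nuclei. Whether tissue dissociation gave the immediate early signal, and whether that signal plays a part in the carriers' levels, was not tested.

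In lipid-associated-like nuclei, Slc3a2, Slc38a2 and Slc16a10 were called higher and Slc1a5 lower, against 8.59% of genes higher and 16.4% lower. Slc3a2 had 242 CPM (199.8 to 291) in lipid-associated-like nuclei, against 96.3 CPM in the other macrophage-like nuclei, and its ratio of 2.51 (2.01 to 3.12) was 2.21 in well 1 and 2.59 in well 2. Slc38a2 had 389 CPM (334 to 449), against 167 CPM, with ratios of 0.54 (0.26 to 1.002) in well 1, where 36 nuclei held 10 UMIs, and 2.36 (1.91 to 2.92) in well 2. Slc16a10 had 446 CPM (388 to 511), against 215 CPM, with ratios of 0.98 (0.63 to 1.45) in well 1 and 2.54 (2.06 to 3.13) in well 2. Of these 3, Slc3a2 alone passed 2-fold in both wells, and the calls of Slc38a2 and Slc16a10 rest on well 2. Slc1a5 had 21.2 CPM (10.2 to 39.1) on 10 UMIs, against 53.6 CPM.

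Within well 2, the level of Slc38a2 was 497 CPM (426 to 577) in the 94 lipid-associated-like nuclei and 210 CPM (179 to 244) in the 239 resident-like nuclei. Slc16a10 had 529 and 221 CPM in the same nuclei, Slc3a2 253 and 98.6 CPM, and Slc7a8 356 and 195 CPM. The immediate early list summed to 4760 CPM in lipid-associated-like and 3271 CPM in resident-like nuclei of well 2, the inflammatory list to 2031 and 1178 CPM and the epithelial markers to 63.2 and 148 CPM. Their part in these levels was not tested. The state itself depended on the clustering. In 3 other clusterings the class with this name grew to between 178 and 202 nuclei, and 0 carriers were called, with Slc3a2 at 1.81 to 1.98, Slc38a2 at 1.62 to 1.84 and Slc16a10 at 1.74 to 1.93. With 3000 variable genes or another seed no such class formed.

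The promoter windows of these 3 genes are shown because the genes were called higher together in lipid-associated-like nuclei. They lie at chr19:8713848-8714147 for Slc3a2, chr15:96699679-96699978 for Slc38a2 and chr10:40142205-40142504 for Slc16a10, all on the minus strand of GRCm38.p6 (RefSeq). None of them held TGATGNAA or CACGTG on either strand, so they carry no capitals. The Slc3a2 window lies inside the gene, whose 5' end is at base 8723369, and no window was given for that end.
Slc3a2: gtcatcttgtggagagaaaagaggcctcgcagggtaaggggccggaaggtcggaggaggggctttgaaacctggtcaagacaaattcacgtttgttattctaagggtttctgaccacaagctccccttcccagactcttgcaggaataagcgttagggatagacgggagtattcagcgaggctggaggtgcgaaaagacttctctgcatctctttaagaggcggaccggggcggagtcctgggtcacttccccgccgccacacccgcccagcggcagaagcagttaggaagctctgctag
Slc38a2: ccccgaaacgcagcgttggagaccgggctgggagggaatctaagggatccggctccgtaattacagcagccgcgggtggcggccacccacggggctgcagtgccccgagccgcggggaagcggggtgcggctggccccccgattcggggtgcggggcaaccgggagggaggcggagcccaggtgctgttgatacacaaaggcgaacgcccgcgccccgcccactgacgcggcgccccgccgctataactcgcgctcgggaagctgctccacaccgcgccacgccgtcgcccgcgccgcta
Slc16a10: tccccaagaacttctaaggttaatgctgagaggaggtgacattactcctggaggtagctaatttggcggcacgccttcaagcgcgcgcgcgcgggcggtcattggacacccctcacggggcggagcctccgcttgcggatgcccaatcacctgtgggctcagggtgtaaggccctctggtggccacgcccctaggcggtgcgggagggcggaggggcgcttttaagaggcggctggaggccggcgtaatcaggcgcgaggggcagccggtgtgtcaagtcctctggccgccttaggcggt
Elements outside these windows, such as those in an intron, were not searched.

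**Figure D5:**
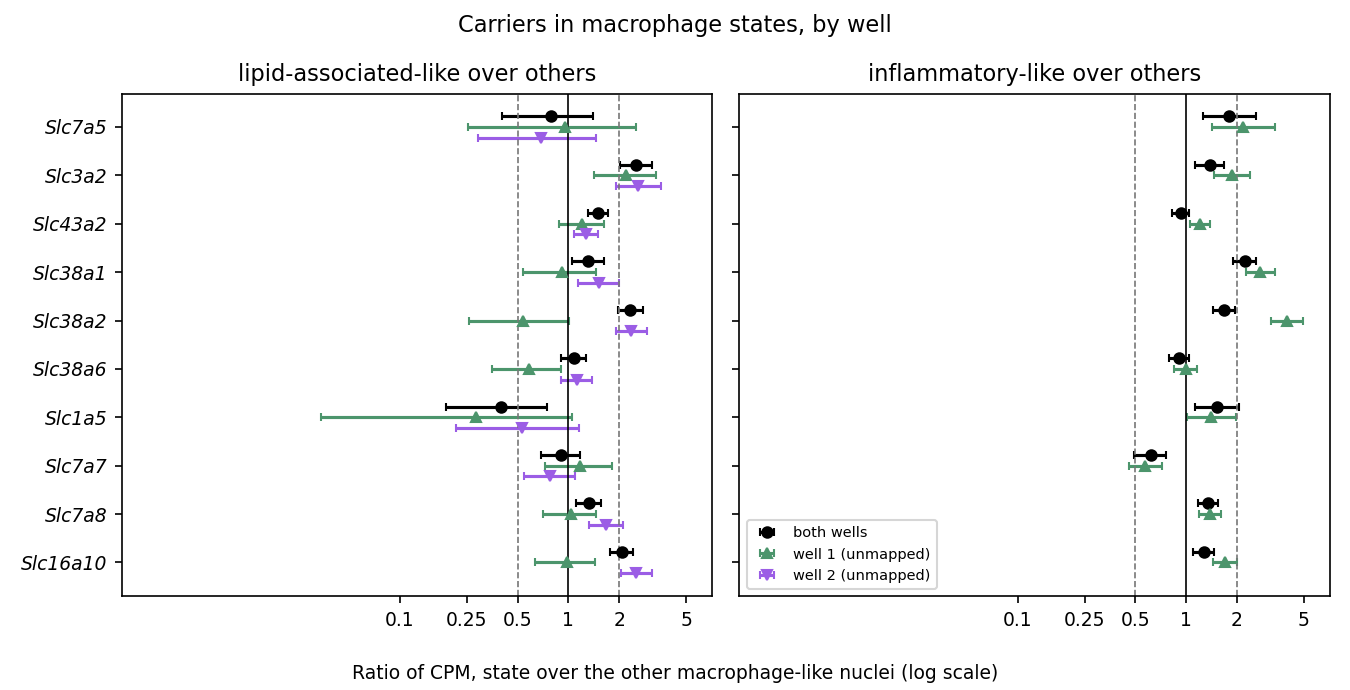
Ratio of CPM in lipid-associated-like (left) and inflammatory-like nuclei (right) over the other macrophage-like nuclei (log scale), in both wells together and in each unmapped well with at least 20 nuclei on both sides, with exact 95% intervals; dashed lines mark 2-fold. Slc3a2 is higher in lipid-associated-like nuclei of both wells, and Slc38a2 lies at 0.54 in well 1 and 2.36 in well 2.

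In lipid-associated-like nuclei, 3 of 7 other carriers compared were called higher and 0 lower, beside 8.59% and 16.4% of all genes. Slc6a8, a creatine carrier gene, had 91.3 CPM in lipid-associated-like nuclei, against 5.48 CPM in the other macrophage-like nuclei. Slc7a2, which encodes a carrier of arginine and other cationic amino acids, had 132 CPM against 33.2 CPM, and Slc7a11 had 91.3 CPM against 42.1 CPM, with 39.5% of its UMIs in 1 nucleus. The ratios were 10.5 and 9.19 in wells 1 and 2 for Slc6a8, 6.28 and 5.53 for Slc7a2 and 3.80 and 2.18 for Slc7a11. Without the nucleus that held most of its UMIs, which came from well 1, Slc7a11 stood at 1.33 (0.84 to 2.03) over both wells and 0.92 in well 1, so its call rests on that nucleus. Slc6a8 and Slc7a2, treated alike, stood at 15.6 and 3.64 over both wells. Of 14 ATF4 response genes compared, 3 were called higher, 1 lower and 10 in neither direction. Atf4 itself stood at 4.40 (3.59 to 5.38), with 2.08 and 6.51 by well, Ddit3, the gene of the stress factor CHOP, at 4.45 (2.77 to 7.03), Mthfd2 at 2.68 (1.52 to 4.54) and the serine synthesis gene Psph at 0.33 (0.0081 to 2.07) on 1 UMI. These list values were not recomputed under other clusterings.

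Resident-like nuclei had 0 of 10 carriers called, against 9.05% of genes higher and 11.5% lower, and their ratios lay between 0.66 for Slc7a5 and 1.29 for Slc43a2. The Slc43a2 ratio was 0.77 (0.45 to 1.24) in well 1 and 0.91 (0.77 to 1.07) in well 2, so its pooled direction held in neither. Inside well 2, Slc3a2 (0.46, 0.34 to 0.63) and Slc38a2 (0.49, 0.40 to 0.61) passed 2-fold as lower and 0 carriers as higher. Of 7420 genes compared there, 9.26% were lower and 11.3% higher. Of the 384 macrophage-like nuclei of well 2, 239 were resident-like and 94 lipid-associated-like. The other side of these well 2 ratios was thus mostly lipid-associated-like. They largely mirror the lipid-associated-like ratios of that well, 2.59 for Slc3a2 and 2.36 for Slc38a2, and are no separate result. Among the other carriers Slc7a2, Slc7a6 and Slc7a11 were called lower, at 0.28, 0.48 and 0.45. Of the ATF4 response genes, Cebpb (3.03) and Ddit4 (2.95) were called higher and Atf4 itself lower (0.48). In well 2, which holds most resident-like nuclei, Cebpb stood at 1.47 (1.24 to 1.74), short of 2-fold, Ddit4 at 2.90 (1.40 to 6.76) and Atf4 at 0.20 (0.14 to 0.28). The other side was again mostly lipid-associated-like, and the Atf4 ratio of lipid-associated-like nuclei in well 2 was 6.51. The 20 cycling-like nuclei held 131 UMIs of the 10 carriers in all. There Slc7a5 was called higher on 8 UMIs (2.64, 1.12 to 5.36), and Slc43a2 (0.37), Slc7a7 (0.14, on 2 UMIs) and Slc7a8 (0.49) lower, against 13.7% of genes higher and 27.3% lower, so 3 of 10 lower is near the background.

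Over both wells, the carriers can be ordered over the 4 largest macrophage groups, which draw unevenly on the wells. Slc43a2 was highest in lipid-associated-like (540 CPM, 475 to 610) and resident-like nuclei (464, 419 to 512), whose intervals overlap, then inflammatory-like (361, 325 to 399.7) and sub-cluster 1 nuclei (294, 266 to 324). The order was not the same inside well 1, where Slc43a2 had 392 CPM in lipid-associated-like, 365 in inflammatory-like, 294 in sub-cluster 1 and 253 in resident-like nuclei, the last on 17 UMIs. In well 2 it had 592 CPM in lipid-associated-like and 482 CPM in resident-like nuclei. Slc7a8 had lipid-associated-like (336, 285 to 392) and inflammatory-like nuclei (327, 293 to 364) at the top, with overlapping intervals, then sub-cluster 1 (244, 219 to 272) and resident-like nuclei (192, 164 to 224), which overlap too. With the wells pooled, Slc38a6 did not separate any pair, with 314, 304, 301 and 275 CPM in lipid-associated-like, resident-like, sub-cluster 1 and inflammatory-like nuclei. Inside well 1, it had 163 CPM (99.6 to 252, on 20 UMIs) in lipid-associated-like and 296 CPM (267 to 326) in sub-cluster 1 nuclei. These well 1 intervals do not overlap. Slc7a7 ran the other way from most, with 206 CPM (182 to 231) in sub-cluster 1, 153 (128 to 181) in resident-like, 140 (108 to 178) in lipid-associated-like and 104 (85.6 to 126) in inflammatory-like nuclei. Its middle pair overlaps, and so do the last 2. Slc7a5 was low throughout, with 51.3 CPM (38.3 to 67.2) in inflammatory-like and 21.0 to 27.6 CPM in the other 3 groups, whose intervals overlap.

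The epithelial-like clusters differed in the light chain of LAT1. Cluster 5 (178 nuclei, 27 of them from well 2) had 101 CPM of Slc7a5 (87.5 to 115), against 44.5 CPM (32.1 to 60.1) in cluster 7 (54 nuclei, all from well 1), a ratio of 2.27 (1.62 to 3.24) that was 2.22 in well 1. Slc7a7 (2.64, 1.52 to 4.92), Slc7a8 (2.18, 0.82 to 7.33) and Slc16a10 (2.77, 1.49 to 5.60) were also called higher in cluster 5, on 15, 5 and 12 UMIs in cluster 7. The 4 of 10 carriers called higher and 0 lower compare with 13.8% of genes higher and 8.16% lower. Macrophage markers summed to 386 CPM in epithelial-like nuclei of cluster 5, against 460 CPM in those of cluster 7. Within well 1, nuclei of cluster 5 had 635 CPM of the cycling list and 3630 CPM of the immediate early list, against 82.6 and 2222 CPM for those of cluster 7. Their part in the Slc7a5 level was not tested. Slc7a8 fell short of 2-fold in well 1 alone (1.21). Slc3a2 stood at 0.94 (0.78 to 1.15), Slc38a1 at 1.56 (1.27 to 1.93) and Slc38a2 at 1.37 (1.19 to 1.58), which was 1.13 in well 1.

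Likeness of pattern was described by Pearson's r of log2(CPM + 10) over 10 classes, which share libraries and differ in depth, among 8918 genes with at least 100 UMIs. The classes counted equally and included unnamed cluster 4 and a class of 11 T cell-like nuclei described further below. That class held 0 UMIs of Slc43a2, Slc7a7 and Slc7a8 and entered every r here. Slc7a7 was most like Abcc5 (0.97), Cuedc2 (0.96), Tifa (0.96), Mertk (0.95), which encodes a receptor for dying cells and is also a macrophage marker used for naming, and St6gal1 (0.95). Slc38a2 was most like Vegfa (0.96), the gene of an angiogenic factor, Jund (0.91), Abtb2 (0.88), Map4k4 (0.87) and Rab11fip1 (0.86). Slc7a5 was most like AI506816 (0.92), Dnttip2 (0.88), Tubb4b (0.86), Nomo1 (0.86) and Prmt1 (0.86). Among the carriers themselves, Slc43a2 and Slc7a8 had the highest r (0.94), then Slc43a2 and Slc7a7 (0.90). Slc3a2 had r of 0.78 with Slc38a2 and of 0.25 with its partner Slc7a5.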

How the data were processed

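Single-nucleus libraries of 1 MYC-PyMT and 1 control-PyMT sample came from 10x Genomics 3' v3 chemistry with 11 cDNA cycles, per the labels' protocols. The authors deposited 1 matrix of raw UMI counts per gene and barcode for both. Cell Ranger 5.0 and build mm10 were used per the submitters' processing notes, with software version 5.0.1 per the file headers. How strand, introns and annotation entered the counting, how barcodes were called and whether depth was equalised is not given in the sources used here; intron counting would raise long genes. GENCODE vM21 held 32235 of the gene identifiers and gave positions on GRCm38, which mm10 also names.

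Barcodes under 500 UMIs (11), under 300 genes (5) or over 5% mitochondrial UMIs (9), 21 in all, were removed, as were 5 doublets called by Scrublet per well. Wells had 1383 and 455 barcodes with 5868606 and 1512841 UMIs. Counts were clustered with scanpy 1.11.5 and igraph 0.11.9 (2000 variable genes without carriers, 30 components, 15 neighbours, Leiden resolution 0.5 for all nuclei and again for macrophage-like ones). Other tools were scipy 1.17.1, statsmodels 0.14.6, numpy 2.4.6, matplotlib 3.10.9, pandas 2.3.3 and Python 3.11.15. A type needed 3 markers, each with 5 UMIs, 20 CPM and 0.5 of its highest cluster level; a state needed 3 list genes at 2-fold. Intervals are exact 95% ones: Poisson for levels, conditional binomial for ratios, Clopper-Pearson for shares. The interval method was checked on simulated counts.

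The carriers, lists and markers were chosen with earlier results of these data known. All 10 carriers are named, as are other carriers past 2-fold, up to 6 ATF4 genes by ratio and the 5 genes most like Slc7a5, Slc7a7 and Slc38a2. Pairs of carriers were chosen after their values were seen. So were the scoring for names, the joining of inflammatory and immediate early lists into 1 state, and the sub-clustering resolution, for which 0.5 and 0.8 were viewed. No genotype comparison was made, because 0 of 2 wells could be mapped. A single pooled matrix has no replicates.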

Additional observations from a re-analysis of the deposited data

Results flagged for a closer look

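A cluster of 11 T cell-like nuclei had all 8 T cell markers detected. It was outside every ratio above and entered only the likeness of pattern. These nuclei held carrier UMIs above the limit that a count of 0 allows (3 counts). Slc16a10 had 74 UMIs there (2547 CPM, 95% interval 2000 to 3198), 48.6% of them in 1 nucleus. Slc38a1 had 16 UMIs (551 CPM), Slc38a2 13 (447 CPM), Slc38a6 6, Slc1a5 6 and Slc3a2 4. Slc43a2, Slc7a7 and Slc7a8 had 0 UMIs, which allows up to 103 CPM each by that limit. Macrophage markers summed to 2960 CPM in these nuclei and epithelial markers to 1239 CPM, which is 36.9% of the epithelial-like level, and their part in these levels was not tested.

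The barcodes removed by the filters, which are outside all results above, held 55 UMIs of the 10 carriers, led by Slc43a2 (11), Slc38a2 (10) and Slc38a6 (9).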

How the results depend on the processing

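The count of carriers past 2-fold between macrophage-like and epithelial-like nuclei stayed within 1.5 times its value of 6 under every alternative run. State counts moved. For inflammatory-like nuclei (1 as reported) the count was 3 in well 1 alone, 3 with called doublets kept, 5 at a fold of 1.5, and 2 at resolution 1.0, with 3000 variable genes and with seed 1. For resident-like nuclei (0) it was 2 in well 1 alone, 2 in well 2 alone, 1 at a fold of 1.5 and 1 at sub-clustering resolution 0.8, an alternative chosen after seeing the data. For lipid-associated-like nuclei (4) it was 2 in well 1 alone and 0 with carriers allowed among the variable genes, at resolution 1.0 and with called doublets kept. At a fold of 1.5, cycling-like nuclei (4) had 7 and sub-cluster 1 (3) had 6. The lipid-associated-like ratios of Slc38a2 (0.539) and Slc16a10 (0.978) were reversed in well 1 alone. Of 620 recomputed ratios, 509 stayed inside the counting interval of the reported value. The cause of these shifts was not tested. The lipid-associated-like class did not form with 3000 variable genes or seed 1, and the cycling-like class did not form in those settings, at resolution 1.0 or with doublets kept. Without the nucleus with most of its UMIs, an alternative added later, the lipid-associated-like ratio of Slc7a11 was 1.33 in place of 2.17. The 27 epithelial-like nuclei of well 2 and the 20 cycling-like nuclei give wide intervals. No paired analysis was possible because neither well could be mapped to a sample and no test was made.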
